A study of Mus musculus with 10 samples.

Results

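The proteasome subunit genes of purified mouse cardiomyocytes (CMs) were taken as every gene of the expression table whose symbol begins with Psma, Psmb, Psmc, Psmd or Psme and a number. Pseudogene copies (symbols with -ps) and the inducible or thymic catalytic subunits Psmb8, Psmb9, Psmb10 and Psmb11 were left out. The rule took 41 entries for 40 symbols out of 37819 features, and where a symbol had more than 1 entry the one with the highest mean was kept. The 40 symbols were 8 Psma, 7 Psmb, 6 Psmc, 14 Psmd and 4 Psme genes, and Psmc3ip, which the rule takes by its name although it encodes a recombination protein and not a subunit. RNA was sequenced from CMs of C57BL6J mice aged 3 months (Young) or 20 months (Old), with 5 libraries per age, and the labels name no transgene or agent for either age. CMs were isolated by enzymatic digestion of the perfused heart, and CD31-, SCA1- and CD45-positive cells were removed. Hearts were of mixed sex by the study's methods, and the labels give neither the sex nor the animal behind each library, so the p-values measure the spread between these libraries.

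The 26S proteasome degrades proteins that carry ubiquitin chains. Its barrel, the core particle, stacks rings of alpha subunits (Psma) that control entry and rings of beta subunits (Psmb) that hold the cutting sites. The regulatory particle that caps the barrel has a base of ATPases (Psmc), which unfold the substrate, and a lid (most Psmd genes), which removes the ubiquitin, while activators (Psme) are other caps. In heart muscle the proteasome turns over sarcomere and other cell proteins. Psmd genes do not all encode lid subunits. Psmd1, Psmd2 and Psmd4 belong to the base, and Psmd5, Psmd9 and Psmd10 encode chaperones that help to build it, so they are described apart from the lid.

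Expression was given as FPKM, fragments scaled to the length of the transcript and to all mapped fragments of the library. Features that averaged 1 FPKM or more over the 10 libraries, 12340 in all, entered a limma fit of log2(FPKM + 1), with p-values adjusted over all of them by Benjamini-Hochberg and a threshold of 0.05. A log2 difference below is Old minus Young on that scale. Of the 40 symbols, 39 passed the minimum, and Psma8, a testis-type alpha subunit, did not. The total FPKM of a library lay between 1155614 and 3289461, and depth per library was not given in the sources used here. The mean normalized count that the authors deposited ranged from 51.0 for Psmc3ip to 5593 for Psme4 over the 39 tested genes, with a median of 979. At the 1673 of Psmb7, counting error alone would be 2.44% of one library's value. All 8 cardiomyocyte markers looked up (among them Myh6, Tnnt2 and Ryr2) were present in every library, with sums of 27752 to 31068 FPKM in Young and 25885 to 29408 FPKM in Old libraries. Of the 8, 5 were below 0 and 3 above, and 0 passed limma's test. Tnni3 was 14.4% lower in Old without overlap between the ages (log2 difference -0.22, limma adjusted p = 0.0886). Leukocyte markers summed to 22.9 to 63.6 FPKM and 26.6 to 56.7 FPKM, and 5 of 8 reached the minimum. Most of these sums came from Cd74 and Lyz2, with means over the 10 libraries of 18.3 and 15.5 FPKM. Csf1r, Cd14 and Cd68 also reached the minimum, and Ptprc, Cd79a and the T cell marker Cd3e did not. Cd3e was listed at 0 in all 5 Young libraries and at up to 0.061 FPKM in Old ones. Endothelial markers summed to more, 83.1 to 175 FPKM in Young and 97.2 to 194 FPKM in Old libraries, and 6 of 6 reached the minimum. Fibroblast and mural sums are given with the processing.

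Young library 1 stood apart from the other Young libraries. Of the 39 tested genes, 31 had their highest Young value there, and 29 had their highest value of all 10 libraries there. The mean log2(FPKM + 1) of the 39 genes was 5.69 in Young library 1 and 5.54 to 5.59 in the other 4 Young libraries, against 5.44 to 5.52 in the Old ones. Its excess went with transcript length. All 15 tested proteasome genes with exons under 2000 bp in total were higher in Young library 1 than in the mean of the other Young libraries, by a median of 0.16 on the log2 scale, and so were all 17 with 2000 to under 4000 bp, by 0.16. Of the 7 genes with 4000 bp or more, 3 were higher there, and the median was -0.014. Of all tested protein-coding genes in the same length classes, 77.4%, 61.2% and 38.1% were higher in Young library 1. Their medians were 0.15, 0.049 and -0.053, so a gradient with length was present in them too, with a smaller value in the middle class. The source of this was not tested, and values without Young library 1 are given with the comparison of the ages.

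The beta ring was the most highly expressed group, with mean levels over the 10 libraries of 70.0 FPKM for Psmb3, a structural subunit, to 127 FPKM for Psmb6, which carries the caspase-like site. The catalytic subunits Psmb5, Psmb6 and Psmb7 were the highest members of the ring, at 117, 127 and 121 FPKM, within a 1.09-fold range. Alpha subunits ranged from 20.9 FPKM for Psma2 to 88.7 FPKM for Psma6. Within the base, the ATPase genes reached from 36.5 FPKM for Psmc6 to 117 FPKM for Psmc3. Lid genes were more even, between 28.2 FPKM for the deubiquitinase Psmd14 and 53.3 FPKM. The base chaperones Psmd5, Psmd9 and Psmd10 stood far below the subunits, at 5.12 to 6.52 FPKM. FPKM of the 14 tested core genes spanned a 6.09-fold range. Activators reached from 22.5 FPKM for Psme3, a nuclear cap, to 110.0 FPKM for Psme1, a subunit of the interferon-inducible cap.

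**Figure D1:**
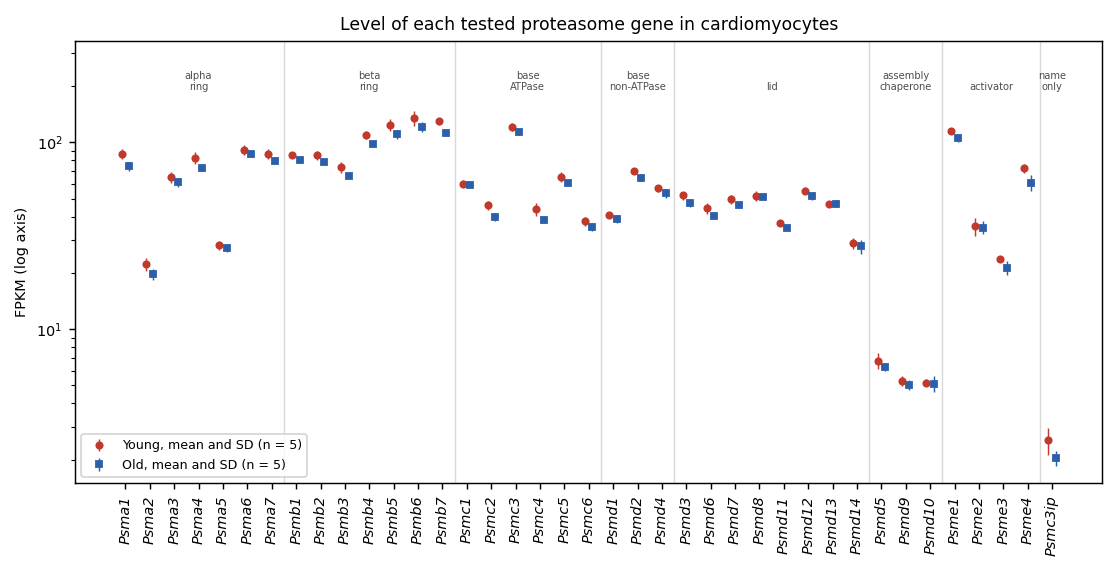
Mean FPKM of each proteasome gene in Young and Old libraries, on a log axis, for the 39 tested genes, with 5 libraries per age, error bars of 1 SD and genes grouped by role. The beta ring sits at 70.0 to 127 FPKM and the base chaperones at 5.12 to 6.52 FPKM.

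Proteasome genes are known for promoters that are read by the factors NRF1 (the product of Nfe2l1) and NF-Y, so the promoter windows of RefSeq (GRCm38.p6), from 250 bases before to 50 bases after a gene's start, were read for the members. Of the 40 symbols, 33 had a window and 3 of them had more than 1, which made 36 windows among 32851 in all. Windows were searched on both strands for 9 motifs. The antioxidant response element core TGACNNNGC, which Nfe2l1 and Nfe2l2 products bind, was in 6 of the 36 windows (16.7%) and in 12.4% of all windows. CCAAT, the NF-Y box, was in 13 windows (36.1%) and in 37.4% of all. The ETS core CGGAAG was in 21 windows (58.3%) against 16.9% of all, and the GC box GGGCGG in 22 (61.1%) against 35.7%. The GC content had a median of 59.0% in the members' windows and 52.7% in all windows. TGACTCA (AP-1) was in 1 window, CACGTG (E-box) in 3, TGACGTCA (CRE) in 0, the heat shock element in 0 and the site of nuclear respiratory factor 1, another protein that is also abbreviated NRF1, in 1. In all windows their shares were 5.20%, 7.15%, 1.79%, 0.603% and 0.971%. A match is a run of letters and not a measured site.

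The 200 bases before the start are shown for the genes on which the results turn and which had a window, namely 2 catalytic beta subunits, the alpha subunit and the activator with large differences, and the lid subunit without one. Capitals mark TGACNNNGC in Psmb5 (chr14:54617996-54618195, minus strand, 47 bases before the start) and in Psmb6 (chr11:70525157-70525356, plus strand, 9 bases before it). In Psma1 (chr7:114276117-114276316, minus strand) they mark CCAAT on either strand, 126 and 98 bases before the start. In Psme4 (chr11:30771575-30771774, plus strand) and Psmd13 (chr7:140882194-140882393, plus strand) they mark CGGAAG, 52 and 91 bases before it.
Psmb5: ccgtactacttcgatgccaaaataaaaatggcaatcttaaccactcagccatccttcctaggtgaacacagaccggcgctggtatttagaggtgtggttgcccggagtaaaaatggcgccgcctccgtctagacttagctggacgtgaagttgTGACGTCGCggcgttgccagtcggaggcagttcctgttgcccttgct
Psmb6: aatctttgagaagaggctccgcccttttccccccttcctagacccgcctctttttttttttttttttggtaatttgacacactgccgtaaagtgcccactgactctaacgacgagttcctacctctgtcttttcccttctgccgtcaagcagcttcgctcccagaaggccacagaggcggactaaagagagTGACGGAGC
Psma1: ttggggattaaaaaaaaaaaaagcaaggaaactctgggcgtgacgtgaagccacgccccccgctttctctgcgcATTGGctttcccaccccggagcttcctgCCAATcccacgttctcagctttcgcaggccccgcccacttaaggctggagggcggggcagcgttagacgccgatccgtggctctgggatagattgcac
Psme4: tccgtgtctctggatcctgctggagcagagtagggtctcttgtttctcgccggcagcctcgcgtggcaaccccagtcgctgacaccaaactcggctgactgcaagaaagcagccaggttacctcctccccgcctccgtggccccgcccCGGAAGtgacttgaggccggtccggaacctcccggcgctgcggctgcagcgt
Psmd13: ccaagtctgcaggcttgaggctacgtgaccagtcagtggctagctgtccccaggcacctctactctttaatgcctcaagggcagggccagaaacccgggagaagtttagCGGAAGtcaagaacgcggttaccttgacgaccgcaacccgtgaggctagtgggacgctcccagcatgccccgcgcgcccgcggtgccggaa
Some matches that run past the printed letters are not in capitals. Psme4 also has TGACNNNGC from 7 bases before the start, and Psmd13 has CGGAAG again from 5 bases before the start and once more after it. Whether any of these letters bear on the differences between the ages was not tested.

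Between Young and Old CMs, Psmb7, the trypsin-like catalytic subunit, fell, and no other tested proteasome gene passed the test in either direction. So 1 of 39 was lower (1.09% of all tested features were) and 0 were higher (0.689% of all). Of the 39 genes, 22 had an unadjusted limma p under 0.05, all of them lower in Old (56.4%, against 17.4% of all tested features lower at that p). The differences were small and pointed one way. The log2 difference was below 0 in 38 of 39 genes (68.7% of all tested features), with a median of -0.10 over the members and -0.058 over all features, and 32 of the 39 (82.1%) lay below that median of all. The Old libraries all lay below the Young ones in 11 genes (28.2%, against 5.72% of all), namely Psma4, Psma7, Psmb2, Psmb3, Psmb4, Psmb7, Psmc4, Psmc5, Psmd6, Psme1 and Psme4. The median member was 7.41% lower in Old CMs, while the median coefficient of variation between libraries was 5.70% in Young and 4.16% in Old. Against more highly expressed features the members stood out less. With a minimum of 5 FPKM, the median was -0.10 over 38 members and -0.077 over 7342 features. Of those 38 members, 28 lay below that median of all.

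Part of the common direction depended on scaling. With libraries scaled by median ratios, the median difference of all features was -8.2e-05 and that of the members -0.036, with 31 of 39 below 0 and 31 below the median of all. With that scaling the mean log2(FPKM + 1) of the 39 genes was 5.49 to 5.63 in Young and 5.45 to 5.55 in Old libraries. The ages overlapped there. Ranges of single genes, counts without overlap and summed FPKM are given here without such scaling, and separations in them may depend on it. Scaled to the same 75th percentile, the medians were 0.016 over all features and -0.017 over the members, with 27 of 39 below 0 and 30 below the median of all. Scaled to the same total, the medians moved the other way, to -0.092 over all features and -0.15 over the members, with 39 of 39 below 0 and 33 below the median of all. Without Young library 1, 36 of 39 were below 0, 29 lay below the median of all (-0.052), the members' median was -0.085, and 0 passed the test. Without it the log2 difference moved by more than 1.5 times in 12 of the 39 genes. It was smaller in Psma3 (-0.040), Psma5 (-0.030), Psma6 (-0.032), Psmb6 (-0.10), Psmc5 (-0.066), Psmd5 (-0.054), Psmd9 (-0.037), Psmd10 (-0.0066) and Psmd14 (-0.021), larger in Psmd13 (0.015), and above 0 in Psmd8 (0.027) and Psme2 (0.038).

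**Figure D2:**
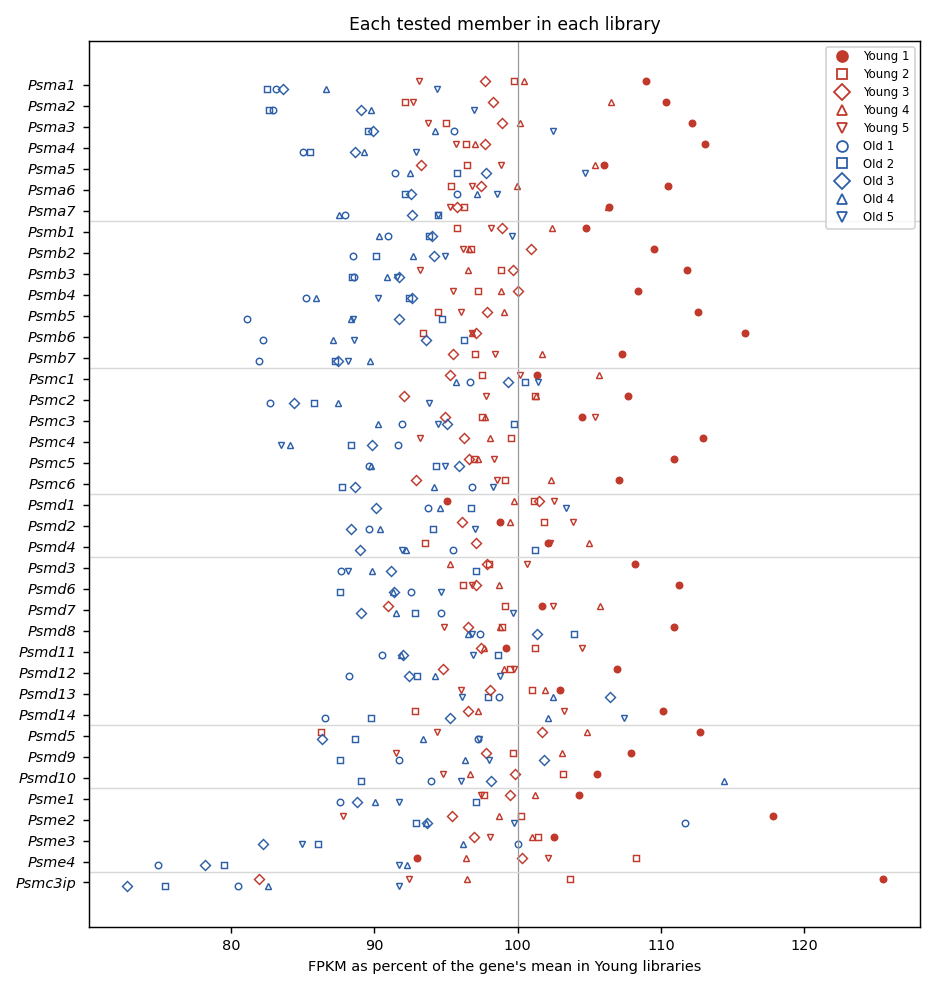
FPKM of each of the 39 tested genes in each of the 10 libraries, as a percent of the gene's mean in the Young libraries, with red symbols for Young, blue for Old and filled circles for Young library 1. Young library 1 is the highest of 10 libraries in 29 genes.

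**Figure D3:**
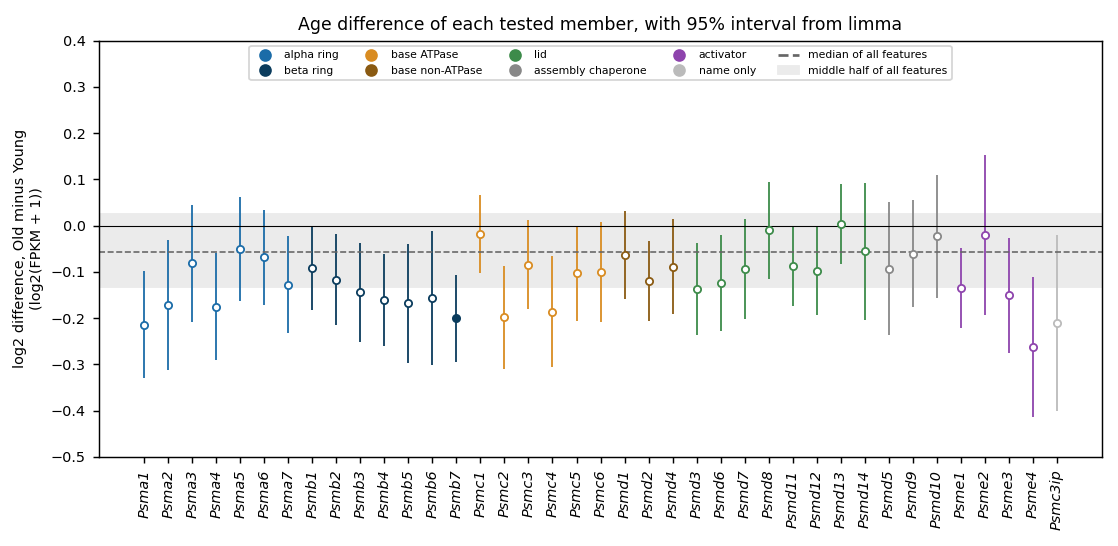
Log2 difference (Old minus Young, log2 of FPKM + 1) of each tested gene with its 95% limma interval, grouped by role, beside the median of all 12340 tested features. Psmb7 is the gene that passed the test, and Psmd13 is the one gene above 0.

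In the beta ring all 7 genes were lower in Old, each with an unadjusted p under 0.05, and the median log2 difference was -0.16. Of all tested features, 68.7% were below 0 and 17.4% were lower at that p. Psmb7 (chromosome 2, 38443556 to 38499607 in mm9) stood at 139, 126, 124, 132 and 128 FPKM in Young libraries 1 to 5 and at 106, 113, 113, 116 and 114 FPKM in Old libraries 1 to 5. The highest Old library lay below the lowest Young one. The mean fell from 129.7 ± 6.05 to 112.7 ± 3.81 FPKM (SD, n = 5 each), which is 13.1% lower (log2 difference -0.20, SE 0.043, limma adjusted p = 0.0467). The call was close to the threshold. Without any one of the 10 libraries the adjusted p was 0.0573 to 0.121, and with median-ratio scaling it was 0.231 at a log2 difference of -0.13.

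Psmb5 (chromosome 14, 55232644 to 55236851), the chymotrypsin-like subunit, stood at 139.9, 117, 122, 123 and 119 FPKM in Young libraries and at 101, 118, 114, 109.7 and 109.9 FPKM in Old ones. Old library 2 reached above Young library 2, so the ages overlapped. Means were 124 ± 9.03 and 110.4 ± 6.29 FPKM (log2 difference -0.17, adjusted p = 0.143). Psmb6 (chromosome 11, 70338869 to 70341360), the caspase-like subunit, stood at 156, 126, 131, 130.2 and 130.3 FPKM in Young and at 111, 129, 126, 117 and 119 FPKM in Old libraries. As for Psmb5, Young library 1 was far above the rest and Old library 1 was the lowest. Means were 135 ± 12.1 and 120.5 ± 7.40 FPKM (log2 difference -0.16, adjusted p = 0.209), and without Young library 1 the log2 difference was -0.10.

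The structural beta subunits followed the same pattern with smaller spreads. Psmb4 stood at 104 to 119 FPKM in Young and 93.3 to 101 FPKM in Old libraries (log2 difference -0.16, adjusted p = 0.0945). Psmb3 had means of 73.6 and 66.4 FPKM (-0.14, adjusted p = 0.136) and Psmb2 of 85.3 and 78.6 FPKM (-0.12, adjusted p = 0.176), both without overlap between the ages. Psmb1 had the smallest difference of the ring (-0.092, adjusted p = 0.228). The summed FPKM of the 7 genes was 743 ± 43.8 in Young and 667 ± 22.6 in Old libraries, 10.2% lower, with 713 to 819 against 630 to 684.

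In the alpha ring all 7 tested genes were below 0 (median -0.13), as were 68.7% of all tested features. Of the 7, 4 had an unadjusted p under 0.05 (17.4% of all tested features were lower at that p). Psma1 (chromosome 7, 121408120 to 121419632) stood at 94.5, 86.5, 84.7, 87.1 and 80.7 FPKM in Young and at 72.1, 71.6, 72.5, 75.1 and 81.9 FPKM in Old libraries. Old library 5 alone reached into the Young range. Means were 86.7 ± 5.01 and 74.6 ± 4.26 FPKM, 13.9% lower (log2 difference -0.21, SE 0.052, adjusted p = 0.0721), and without Old library 5 the gene passed the test (adjusted p = 0.0490). Psma4 did not overlap between the ages (78.8 to 93.1 against 70.0 to 76.4 FPKM, log2 difference -0.18, adjusted p = 0.108), nor did Psma7, with means of 86.8 and 79.3 FPKM (-0.13, adjusted p = 0.166). Psma2, the lowest of the ring, had means of 22.2 and 19.6 FPKM (-0.17, adjusted p = 0.165). At the other end Psma5 and Psma6 were 3.55% and 4.75% lower, within their spread. Psma8 had 0.194 to 0.700 FPKM in Young and 0.609 to 0.854 FPKM in Old libraries (two-sided exact permutation p = 0.103, n = 5 each).

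All 6 ATPase genes of the base were below 0 (median -0.10), as were 68.7% of all tested features. Of the 6, 2 had an unadjusted p under 0.05 (17.4% of all tested features were lower at that p). Psmc2 (chromosome 5, 21291101 to 21309605) stood at 49.6, 46.6, 42.4, 46.6 and 45.0 FPKM in Young and at 38.1, 39.5, 38.9, 40.3 and 43.2 FPKM in Old libraries. Only Old library 5 lay above the lowest Young value. The mean was 13.2% lower in Old (log2 difference -0.20, SE 0.050, adjusted p = 0.0773). Psmc4, at 40.8 to 49.5 FPKM in Young and 36.6 to 40.2 FPKM in Old libraries, did not overlap (-0.19, adjusted p = 0.105), and neither did Psmc5 (-0.10, adjusted p = 0.242), although its margin was narrower. Psmc3, the most abundant ATPase, had means of 121 and 114 FPKM (adjusted p = 0.310), and Psmc6 was 6.86% lower (adjusted p = 0.281). Psmc1 had 60.1 ± 2.37 and 59.3 ± 1.48 FPKM, with a 95% interval of the log2 difference from -0.10 to 0.067. The sum of the 6 genes was 374 ± 16.2 FPKM in Young and 348 ± 7.11 FPKM in Old libraries. The ages did not overlap, by a margin of less than 1 FPKM (355 to 399 against 338 to 354).

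Of the other base subunits, Psmd2, the scaffold that receives shuttle factors, stood at 67.4 to 72.8 FPKM in Young and 62.0 to 68.1 FPKM in Old libraries (log2 difference -0.12, adjusted p = 0.126). The ubiquitin receptor Psmd4 had means of 56.7 and 53.2 FPKM (-0.088, adjusted p = 0.315) and Psmd1, another scaffold, was 4.29% lower (adjusted p = 0.453). Young library 1 was the lowest Young library for Psmd1, unlike for most members.

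The lid had the smallest percent difference in summed FPKM of the particle's parts, and differences between the parts were not tested. Of its 8 genes 7 were below 0 (68.7% of all tested features were), with a median of -0.091. An unadjusted p under 0.05 was found for 4 (17.4% of all tested features were lower at that p). The sum was 5.20% lower with overlap between the ages. Psmd3 had means of 51.9 ± 2.58 and 47.1 ± 1.96 FPKM (-0.14, adjusted p = 0.130) and Psmd6 of 44.3 and 40.5 FPKM without overlap (-0.12, adjusted p = 0.171), while Psmd11 and Psmd12 were 6.02% and 6.67% lower (adjusted p of 0.229 and 0.231). Psmd14 (chromosome 2, 61549751 to 61638433), which cuts the ubiquitin chain from the substrate, stood at 31.7, 26.7, 27.8, 28.0 and 29.7 FPKM in Young and at 24.9, 25.8, 27.4, 29.4 and 30.9 FPKM in Old libraries. The ages overlapped over most of their ranges, and the interval of the log2 difference ran from -0.20 to 0.093. Psmd13 (chromosome 7, 148067867 to 148084542) stood at 48.2, 47.3, 46.0, 47.7 and 45.0 FPKM in Young and at 46.3, 45.9, 49.8, 48.0 and 45.0 FPKM in Old libraries. The ages lay on each other (46.8 ± 1.33 and 47.0 ± 1.92 FPKM, interval -0.083 to 0.091), and Psmd8 likewise had 51.6 and 51.2 FPKM. For the base chaperones Psmd5, Psmd9 and Psmd10, 0 of 3 passed limma's test or had an unadjusted p under 0.05, and the median was -0.061. Psmd10, the lowest of the Psmd genes, had 5.17 and 5.08 FPKM (adjusted p = 0.875).

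Proportions of the parts within a library were compared as well. Core over regulatory particle, as a ratio of summed FPKM, was 1.33 ± 0.048 in Young and 1.28 ± 0.022 in Old libraries, with ranges of 1.27 to 1.39 and 1.25 to 1.30. Alpha over beta ring was 0.613 to 0.638 in Young and 0.601 to 0.662 in Old, and ATPases over lid 1.01 to 1.03 and 0.978 to 1.02. All these ranges overlapped. The core sum was 9.68% lower in Old and the sum of the regulatory particle's 17 genes 6.21% lower.

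Among the activators, Psme4, the PA200 cap that is known for the degradation of acetylated histones, had the largest difference of the tested proteasome genes. Psme4 (chromosome 11, 30671726 to 30780361) stood at 67.6, 78.7, 73.0, 70.1 and 74.3 FPKM in Young and at 54.5, 57.9, 56.9, 67.1 and 66.7 FPKM in Old libraries. The ages did not overlap, but Old libraries 4 and 5 lay within 1 FPKM of Young library 1, which here was the lowest Young library. Means were 72.7 ± 4.22 and 60.6 ± 5.90 FPKM, 16.7% lower (log2 difference -0.26, SE 0.068, adjusted p = 0.0827). Psme4 has 8382 bp of exons, and without Young library 1 the difference was -0.29. Psme1 stood at 112 to 120.1 FPKM in Young and 101 to 112 FPKM in Old libraries (-0.13, adjusted p = 0.103), and its partner in the same ring, Psme2, had 35.6 ± 3.93 and 35.0 ± 2.84 FPKM (interval -0.19 to 0.15). Near-identical copies make Psme2 uncertain, since the pseudogene Psme2b-ps was given 8.43 to 10.9 FPKM. Psme3 was 10.1% lower (adjusted p = 0.162). The name-only gene Psmc3ip had 2.54 and 2.05 FPKM (adjusted p = 0.196), and without it the members' median was -0.10 over 38 genes.

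Other genes of the pathway were read from lists. Of all tested features, 68.7% were below 0 and 17.4% were lower at an unadjusted limma p under 0.05, with a median of -0.058. Of 6 assembly chaperones outside the naming rule, 0 passed limma's test and 1 had an unadjusted p under 0.05 (median -0.051). That was Psmg2, a partner of Psmg1 in alpha ring assembly, with 21.5 ± 2.09 and 18.5 ± 1.15 FPKM and a narrow gap between the ages (adjusted p = 0.134), while the beta ring chaperone Pomp had 96.4 and 99.4 FPKM (adjusted p = 0.687). The subunits Adrm1, a ubiquitin receptor, and Shfm1, a small lid protein, had log2 differences of -0.093 and -0.061 (adjusted p of 0.244 and 0.556), and the inhibitor Psmf1 of -0.018. Both deubiquitinases that dock on the particle were below 0, with 0 of 2 passing limma's test and 1 with an unadjusted p under 0.05, which was Uchl5 (9.45 ± 0.702 and 8.05 ± 0.559 FPKM, adjusted p = 0.102).

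Genes of factors that bring substrates to the particle pointed the same way. All 9 tested shuttle and delivery genes were below 0 (68.7% of all tested features were), with a median of -0.091 against -0.058 over all features. Of the 9, 0 passed limma's test, and 4 were lower at an unadjusted p under 0.05 (17.4% of all tested features were). The smallest p was that of Ubqln1 (log2 difference -0.14, adjusted p = 0.0963) and then of Ubqln2 (-0.18, adjusted p = 0.161). For ubiquitin itself and the activating enzymes, 5 of 6 were below 0, and 0 passed limma's test or had an unadjusted p under 0.05. Of 6 genes for regulators of proteasome transcription, 4 were below 0, near the share of all tested features. Of the 6, 0 passed limma's test and 1 had an unadjusted p under 0.05. That one was Ngly1, the glycanase that processes the Nfe2l1 product (-0.11, adjusted p = 0.187). Nfe2l1 itself had 145 ± 12.8 and 147 ± 11.4 FPKM (adjusted p = 0.921).

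The inducible subunits, which replace the catalytic beta subunits in the immunoproteasome, pointed the other way. All 3 tested genes were above 0 (median 0.27, against 31.3% of all tested features above 0), 0 passed limma's test and 1 had an unadjusted p under 0.05 (3.51% of all were higher at that p). Psmb10, which replaces Psmb7, stood at 26.7, 23.9, 21.7, 24.3 and 21.0 FPKM in Young and at 32.5, 31.5, 31.3, 27.2 and 25.2 FPKM in Old libraries. Old library 5 alone lay below the highest Young value. Means were 23.5 ± 2.28 and 29.6 ± 3.16 FPKM (log2 difference 0.32, adjusted p = 0.0866), and the call depended on scaling. The gene passed the test with median-ratio scaling (0.38, adjusted p = 0.0482) and the 75th percentile (0.40, adjusted p = 0.0287), and did not with the same total (0.27, adjusted p = 0.9997). Psmb9, which replaces Psmb6, had 2.16 and 2.79 FPKM (adjusted p = 0.377) and Psmb8, which replaces Psmb5, 3.73 and 4.21 FPKM (adjusted p = 0.753). The authors' mean normalized count was 0 for Psmb9, against 77.7 for Psmb8 and 451 for Psmb10. The level and ratio of Psmb9 are therefore uncertain, and the source of this was not tested. Psmb11 reached no more than 0.0095 FPKM.

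Ratios within a library do not depend on its scaling, and were chosen after the values had been seen, so they are given without a test. Psmb10 was 19.2%, 19.0%, 17.5%, 18.4% and 16.4% of Psmb7 in Young libraries and 30.6%, 27.9%, 27.6%, 23.4% and 22.1% of it in Old ones. Every Old library lay above every Young one (18.1 ± 1.15% against 26.3 ± 3.51%, 1.45-fold), and 1.40-fold without Young library 4 and Old library 1, which had the highest mean log2(FPKM + 1) of markers of the removed cell types (3.27 and 3.22, against 2.42 to 2.87 in the others). Psmb9 was 1.01 to 2.17% of Psmb6 in Young and 1.74 to 3.43% in Old libraries, and Psmb8 2.07 to 3.91% and 2.84 to 6.64% of Psmb5, both with overlap. Of 8 leukocyte markers 5 were tested, 2 above and 3 below 0, and 0 passed limma's test or had an unadjusted p under 0.05. Of 13 interferon-response genes, 12 were tested and all were above 0 (31.3% of all tested features were), with a median of 0.32. Of the 12, 4 were higher at an unadjusted limma p under 0.05 (3.51% of all were). Of them 1 passed the test as higher (0.689% of all did). That was Irf7, an interferon-induced transcription factor, which rose (5.44 ± 1.49 to 15.1 ± 7.09 FPKM, adjusted p = 0.0467). Irf7 missed the threshold with no minimum (adjusted p = 0.0910), the replicate block (0.0838), robust eBayes (0.0645) and without any single library (0.0554 to 0.116). The summed interferon-response genes reached 115 to 208 FPKM in Young and 158 to 417 FPKM in Old libraries, highest in Old library 1. There Psmb8, Psmb9 and Psmb10 were also highest. Most of that sum was 1 gene, B2m, at 84.0 to 159 FPKM in Young and 114 to 309 FPKM in Old libraries (limma adjusted p = 0.316). In bulk CMs, RNA of other cells and RNA of each CM cannot be told apart, and the part of leukocytes or of interferon in these ratios was not tested.

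**Figure D4:**
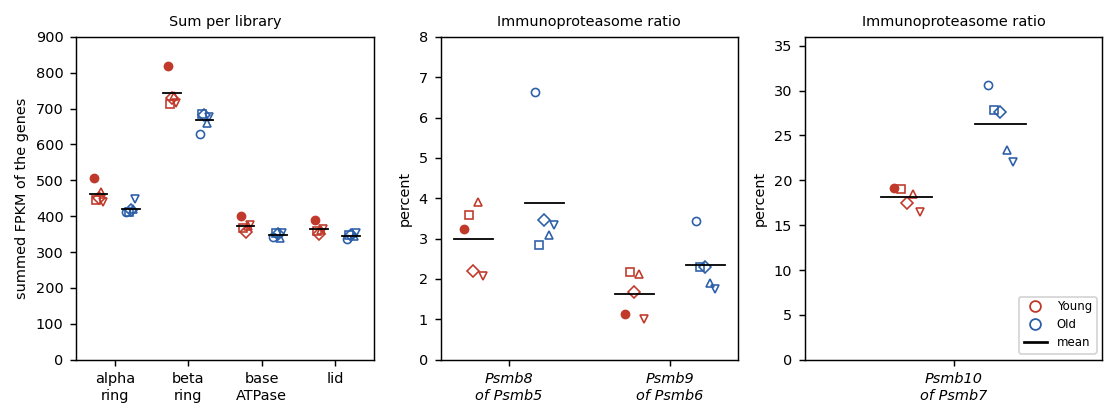
Left, summed FPKM of the alpha ring, beta ring, base ATPases and lid in each library. Middle and right, Psmb8, Psmb9 and Psmb10 as a percent of the constitutive subunit each replaces, with bars for the mean of 5 libraries per age and a filled circle for Young library 1. Without scaling between libraries, the beta ring sums do not overlap (713 to 819 FPKM against 630 to 684). The Psmb10 ratios, which do not depend on scaling, do not overlap either (16.4 to 19.2% against 22.1 to 30.6%).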

How the data were processed

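RNA of purified CMs from 5 Young and 5 Old libraries was sequenced, and the groups were taken from the labels. Per the study's methods, the authors used tophat2 to place the read pairs on mm9, counted uniquely placed reads in HTSeq and ran DESeq2 on the counts. The FPKM that the authors determined with Cufflinks were deposited per library and used as given after 1 stray header line was removed. From the authors' comparison only the deposited signal was used, the mean normalized count of a gene over the libraries. Its 10 columns of per-sample values and the authors' fold changes and p-values were not used. Of these mean normalized counts, 73.9% fell in 5 entries that name no gene, and the genes summed to 12452210. FPKM divides by the fragments of the whole library, so a few very abundant transcripts can shift all other genes of a library together.

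For 12340 features averaging 1 FPKM or more, limma 3.58.1 (R 4.3.3; lmFit and eBayes with trend) was run on log2(FPKM + 1), a pseudocount of 1 that shrinks differences of low genes, two-sided, with Benjamini-Hochberg adjustment. The script was tested on simulated data. Psma8 was compared by a two-sided exact permutation test over 252 arrangements, which cannot go below p = 0.00794. That test was run in Python 3.11.15 with scipy 1.17.1, and plots were drawn with matplotlib 3.10.9. Gene places and exon lengths are from GENCODE for mm9, and promoter windows from RefSeq for GRCm38.p6.

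The members, lists and naming rule were chosen with earlier results of these data known. Named genes are members that passed the test or did not overlap between the ages, the catalytic subunits, ubiquitin receptors and Psmd14, the highest and lowest of each class, the 4 smallest p per class and up to 4 per pathway list. Psma5, Psmb1, Psmd1, Psmd5, Psmd8, Psmd9, Psmd12 and Psmd13 were named after their values were seen. Alternatives were other pseudocounts, minimums, scalings and limma settings, a covariate of markers of removed cells (endothelial, leukocyte, fibroblast and mural), summed entries per symbol and leaving out each library. A gene of the delivery list is not reported here, and that list is counted without it. Endothelial, fibroblast and mural markers summed to 83.1 to 175, 39.9 to 115 and 77.2 to 148 FPKM in Young libraries and to 97.2 to 194, 38.8 to 110 and 70.3 to 145 FPKM in Old ones, and none of them passed the test.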

Additional observations from a re-analysis of the deposited data

Results flagged for a closer look

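In 134 groups of 5 libraries, Dixon's test set a library apart in 14, and chance sets apart about 1 in 20. In 9 of the 14 the library was Young library 1, which was above the other Young libraries. Psma4 was at 93.1 FPKM there (others 78.8 to 80.5), Psmb5 at 139.9 (117 to 123) and Psmb6 at 156 (126 to 131). Psmc5 was at 72.4 (63.1 to 64.2), Psmd6 at 49.3 (42.6 to 43.7) and Psmd8 at 57.3 (49.0 to 51.1). The chaperones Psmg1 and Psmg2 were at 17.3 (14.1 to 14.8) and 25.1 (20.2 to 21.4), and Adrm1 at 41.3 (37.4 to 38.3).

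In the other 5 the libraries varied. Psmb8 was at 6.69 FPKM in Old library 1 (3.34 to 3.94 in the other Old ones), Psmf1 at 5.93 in Old library 4 (7.65 to 8.27) and Uba6 at 1.58 in Old library 3 (1.77 to 1.83). Old library 5 was high for Usp14, at 28.8 (25.2 to 25.9), and for Ubqln1, at 16.5 (15.1 to 15.4).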

How the results depend on the processing

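The count of proteasome genes that passed limma's test as lower (1) was 0 with no minimum, median-ratio scaling, the same total, the same 75th percentile, the replicate block, robust eBayes, and without Young library 4 and Old library 1 together (added after seeing the data). Leaving out each library gave 0 to 1. No alternative gave a higher one. The median difference of the members was -0.036 with median-ratio scaling, -0.017 with the 75th percentile, -0.15 with the same total, and -0.13 to -0.085 without single libraries. Psmb7 kept its direction in every alternative run, and passed the test with a pseudocount of 0.1, a minimum of 5 FPKM, array weights, the covariate and summed entries. The cause was not tested.

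Over all tested features, 85 higher and 135 lower became 88 and 61 with no minimum, 40 and 158 with a minimum of 5 FPKM, 106 and 29 with median ratios, 10 and 10 with the same total, 136 and 28 with the 75th percentile, 103 and 197 with array weights, 110 and 164 with the covariate, 19 and 7 with the replicate block, 35 and 14 without Young library 4 and Old library 1, and 24 to 71 and 9 to 89 without single libraries. Same-numbered libraries did not deviate together (correlations of -0.16 to 0.062), so the replicate block pairs libraries by a number alone, and under it 0 members passed and the members' median stayed at -0.10.

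Of 1466 values of single genes under alternatives, 42 changed sign, for 20 genes. With median ratios these were Psma5 (0.015), Psmc1 (0.049), Psmd1 (0.0036), Psmd10 (0.034), Psmd14 (0.010), Psmd8 (0.057), Psme2 (0.045), Psmf1 (0.042), Shfm1 (0.0062), Uba1 (0.010) and Usp14 (0.043). With the 75th percentile they were Nfe2l2 (0.0021), Psma3 (0.0049), Psma5 (0.034), Psma6 (0.019), Psmc1 (0.068), Psmc3 (0.0031), Psmd1 (0.023), Psmd10 (0.051), Psmd14 (0.030), Psmd8 (0.076), Psmd9 (0.013), Psme2 (0.065), Psmf1 (0.059), Shfm1 (0.026), Uba1 (0.030), Ubqln4 (0.0046) and Usp14 (0.062). With the same total they were Pomp (-0.0038) and Psmd13 (-0.042), with array weights Psmd8 (0.018), and without Young library 4 and Old library 1 Psmc1 (0.0093). Without single libraries the ranges were -0.015 to 0.22 for Psmb8, -0.035 to 0.0020 for Psmc1, -0.070 to 0.0055 for Psmd10, -0.017 to 0.019 for Psmd13, -0.028 to 0.027 for Psmd8, -0.066 to 0.038 for Psme2 and -0.051 to 0.054 for Psmf1. Irf7 also missed the threshold without Young library 4 and Old library 1 (adjusted p = 0.103). Near-identical copies (Psmb5-ps at 0.848 to 1.36 FPKM, Psmb7-ps2 at 0.318 to 0.671) may share reads with the members. With 5 libraries per age and adjustment over all tested features, differences of this size could be missed. Psma1 and Psmc2, which were 13.9% and 13.2% lower in Old, did not pass limma's test over all 10 libraries.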
